A study of Mus musculus with 18 samples.

Results

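The nuclear genes of the mitochondrial respiratory chain were followed in mouse mast cells: the subunits of complexes I to V, cytochrome c and the complex I assembly factors that carry an Nduf symbol. They were taken by name, as every gene whose probe symbol begins with Nduf, Uqcr or Atp5, begins with Cox and a digit from 4 to 8, or is Sdha, Sdhb, Sdhc, Sdhd, Cycs or Cyc1. On the array 89 such symbols had a probe, and 81 of them had a probe with a detection p under 0.05 on 3 or more arrays, out of 10548 genes tested. The 81 genes comprised 5 core and 30 accessory subunits of complex I, 7 of its assembly factors, 3 subunits of complex II, 8 of complex III, 11 of complex IV and 16 of complex V, and Cycs. The other 8 were left out because their probes were not detected: Ndufs1, Sdha, Cox4i2, Cox6a2, Cox8c and Ndufaf6 were detected on 0 arrays, Cox7b2 on 1 and Cox8b on 2. Just inside the limit, Uqcrfs1 was detected on 7 arrays and Atp5k on 14. Ndufs1 and Sdha encode the largest subunits of their complexes, so neither could be described here. Genes were placed in complexes by symbol. The 30 accessory subunits therefore include Ndufs5-ps, the symbol of a pseudogene, and Ndufa4, which was later found in complex IV.

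Complexes I and II pass electrons from NADH and succinate to ubiquinone, complex III hands them to cytochrome c, and complex IV uses them to reduce oxygen. Complexes I, III and IV pump protons across the inner mitochondrial membrane, and complex V, the ATP synthase, uses the gradient to make ATP. Released into the cytosol, cytochrome c also triggers the caspase cascade of apoptosis. Mast cells are tissue-resident cells of the allergic response that answer crosslinked IgE with degranulation and cytokine release, and the alarmin IL-33, which binds the receptor ST2, with cytokine release.

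Bone marrow-derived mast cells (BMMCs) came from C57BL/6J mice, 4 to 6 weeks of age. The groups were ST2KO cells with IL-33 for 4 h, ST2KO cells with IgE for 4 h, unstimulated ST2KO cells, wild-type (WT) cells with IL-33 for 4 h, WT cells with IgE for 4 h and unstimulated WT cells. ST2KO cells lack ST2. Each group had 3 Illumina arrays of total RNA, 18 in all. No label states that the 3 arrays of a group came from separate cultures or animals, so the p-values measure the spread between these arrays, which may be technical. Il1rl1, the gene of ST2, was not analysed here. Over all 10548 genes IL-33 called 0 in ST2KO cells by limma, with or without the block described below, against 1246 in WT cells.

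Values are levels on a log2 scale after background correction and quantile normalization, and a change is a difference of group means with its standard error (SE), n = 3 arrays per group. The median intensity was 86.4 to 97.9 over the 17 complete arrays. ST2KO IgE replicate 3 held 10012 of 45281 probes, and its values were placed by the rank of the probe in the authors' own table. The arrays numbered 3 stood apart in every group: within a group, arrays 1 and 2 correlated at 0.992 to 0.994 across genes, and array 3 with array 1 at 0.936 to 0.968. Of 12 mast cell markers 10 were measured. Their summed intensity was 162892 to 184162 on the arrays numbered 3 and 145512 to 170108 on the others. The sum hides single markers. Mcpt4 was higher on array 3 in all 6 groups, with a median gap of 5.69 to the mean of arrays 1 and 2. Tpsb2 was lower in all 6 (-0.30), and the other mast cell markers went both ways. Of 9 macrophage and dendritic cell markers 7 were measured, with a sum of 860 to 5801 on the arrays numbered 3 and 367 to 976 on the others. No neutrophil or lymphoid marker with a probe was detected on 3 or more arrays. In a sample of many cells, fewer cells of a type and less RNA per cell cannot be told apart. Arrays of 1 genotype that carried the same number deviated together, most clearly those numbered 3. Each comparison was therefore also fitted with that number as a block, which compares same-numbered arrays with each other. Calls that needed the block are named as such.

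Most respiratory chain genes stayed within a narrow range in all 6 groups. The median range of the 6 group means was 0.36 log2 units for the 81 genes, beside 0.55 over all 10548 genes. It exceeded 1 log2 unit for Cycs, Cox7a1 and Ndufaf4, which is 3.7% of the 81, beside 19.5% of all genes. The spread within a group was alike, with a median SD of 0.23 for the 81 genes and 0.22 for all genes. The 81 genes had higher levels, with a median of 10.49, beside 7.14 for all genes. Of the 81, 70.4% were at or above the 75th percentile of all genes. Genes of matched level were not compared.

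With IgE in ST2KO cells 1 gene of the 81 rose and none fell, beside 5.47% and 7.1% of all genes (12.6% in either direction). With IL-33 in WT cells none rose and 2 fell, beside 5.08% and 6.73% (11.8% in either direction). With IgE in WT cells 1 rose and 1 fell, beside 5.32% and 6.49% (11.8% in either direction). The genes were Ndufa4 for ST2KO IgE, Ndufa6 and Ndufaf2 for WT IL-33, and Cycs and Ndufaf2 for WT IgE, by limma at an adjusted p under 0.05. No gene of the 81 passed with IL-33 in ST2KO cells (background 0%), between unstimulated ST2KO and unstimulated WT cells (0.00948%), between WT IL-33 and WT IgE (4.42%) or in the difference of the IgE responses between genotypes (0%). At an unadjusted p under 0.05 those comparisons held 0, 0, 1 and 0 of the 81. In the difference of the IL-33 responses 0 of the 81 passed, beside 2.71% of all genes, and 5 had an unadjusted p under 0.05. The share of all genes at the unadjusted threshold is not given here, so the unadjusted counts have no background beside them.

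With the replicate block the counts were larger, for these genes as for all genes. In ST2KO cells with IgE 15 passed higher and 5 lower, beside 15.1% and 18.6% of all genes (33.7% in either direction). In WT cells with IL-33 6 passed higher and 5 lower, beside 13.5% and 18% (31.4% in either direction). In WT cells with IgE 10 passed higher and 4 lower, beside 14.6% and 17.9% (32.5% in either direction). Between WT IL-33 and WT IgE none passed higher and 5 lower, beside 7.56% and 8.25% (15.8% in either direction). In the difference of the IL-33 responses 5 passed higher and 2 lower, beside 8.89% and 6.6% (15.5% in either direction). No gene of the 81 passed with the block for ST2KO cells with IL-33 (background 0%), unstimulated ST2KO against unstimulated WT cells (0.199%) or the difference of the IgE responses (0%). In all, 28 of the 81 passed with the block in at least 1 comparison and 4 without it. All 28 are named below.

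Counts of genes with no overlap between the arrays compared were below the background in each comparison. They were 0 with IL-33 in ST2KO cells (beside 5.1% of all genes), 10 of 81 with IgE in ST2KO cells (12.3%, beside 28.8%), 11 with IL-33 in WT cells (13.6%, beside 30.1%) and 19 with IgE in WT cells (23.5%, beside 34.5%). They were 3 between unstimulated ST2KO and unstimulated WT cells (3.7%, beside 8.04%) and 6 between WT IL-33 and WT IgE (7.41%, beside 21.3%). The 95% interval of the change lay within 1 log2 unit of 0 for 77 of the 81 genes with IL-33 in ST2KO cells, 74 with IgE in ST2KO cells, 72 with IL-33 in WT cells and 73 with IgE in WT cells. Over all genes that share was 85.7%, 65.6%, 66.5% and 66.2%. In the same order, the median change of the 81 genes was 0.02, 0.11, -0.04 and 0.11, beside -0.01, -0.04, -0.02 and -0.03 for all genes.

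**Figure D1:**
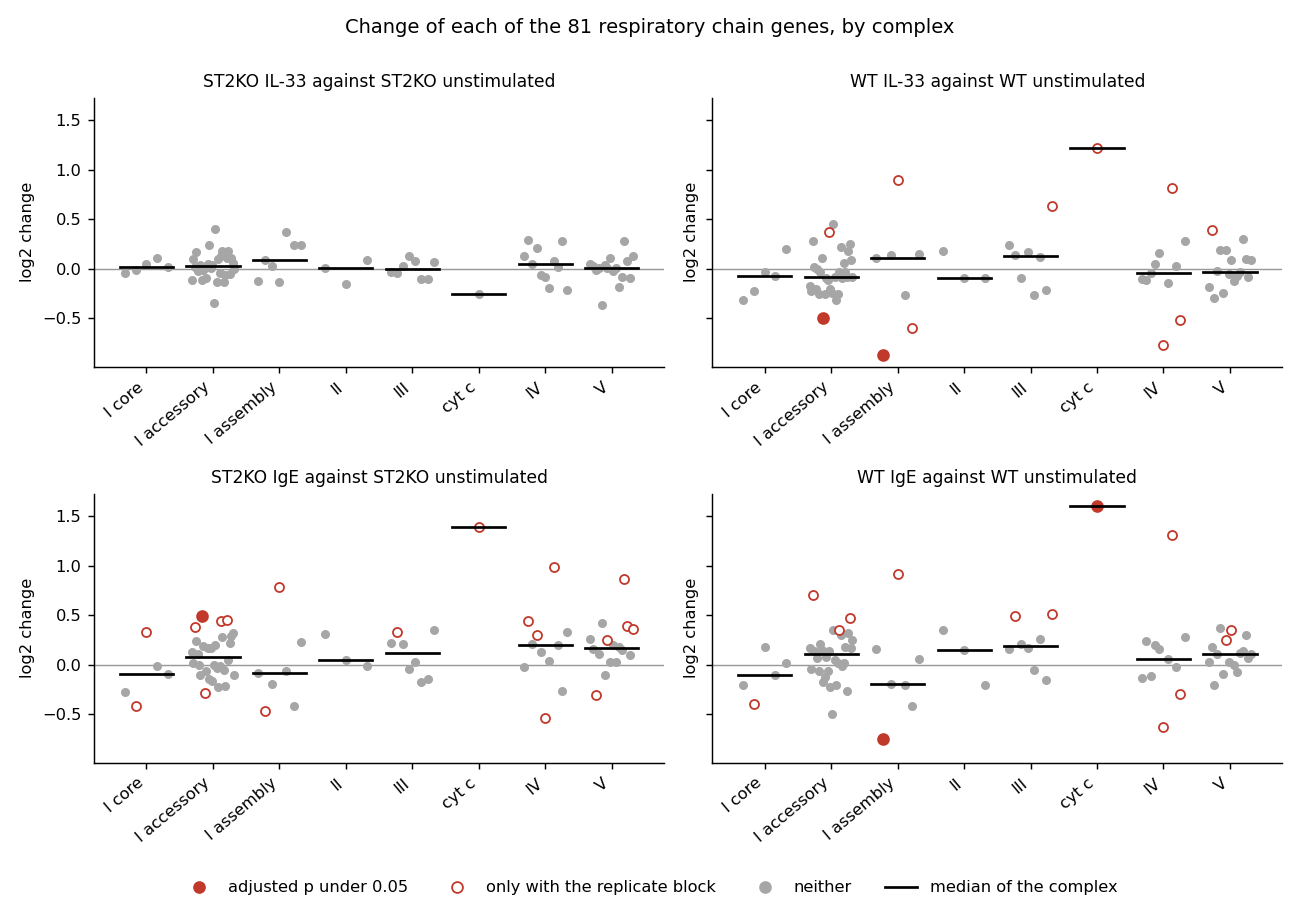
Change (log2, y axis) of each of the 81 genes against unstimulated cells of its genotype, in panels for ST2KO IL-33, WT IL-33, ST2KO IgE and WT IgE, with genes placed by complex along the x axis. Filled red points passed at an adjusted p under 0.05, open red points passed with the replicate block only, grey points passed neither, and black lines are the medians of a complex. Cycs is the highest point with IgE in both genotypes and with IL-33 in WT cells, while the ST2KO IL-33 panel holds no red point.

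Cycs, somatic cytochrome c, had the largest change of the 81 genes. Its promoter is shown because Cycs is a textbook target of NRF1 and of CREB. The 250 bases before the gene's start (RefSeq, GRCm38.p6, chr6:50566570-50566819, minus strand) carry in capitals a CRE palindrome, TGACGTCA, beginning 169 bases before the start, and the core of the NRF1 site, GCATGCGC, beginning 60 bases before it. The NRF1 and CRE letters were settled after the sequences had been seen, so finding them here is not a test set in advance. The match is one of letters and says nothing of binding in these cells.
Cycs promoter: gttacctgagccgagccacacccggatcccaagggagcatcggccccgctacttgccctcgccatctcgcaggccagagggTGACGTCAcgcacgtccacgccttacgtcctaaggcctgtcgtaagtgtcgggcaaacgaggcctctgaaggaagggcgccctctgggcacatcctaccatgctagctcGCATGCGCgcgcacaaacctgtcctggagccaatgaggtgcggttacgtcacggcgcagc

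In ST2KO cells Cycs was at 10.05, 9.84 and 8.33 with IL-33, against 10.21, 10.07 and 8.69 unstimulated, a change of -0.25 ± 0.49 with overlapping groups. With IgE the ST2KO cells were at 11.41, 11.41 and 10.31, where the third value was placed by rank. Those arrays lay above all unstimulated ones, and the change was 1.39 ± 0.49 (adjusted p = 0.0764, and 2.97e-06 with the block).

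In WT cells Cycs was at 11.09, 11.05 and 9.99 with IL-33 and at 11.25, 11.15 and 10.87 with IgE, against 9.68, 9.80 and 8.98 unstimulated. Both stimulated groups lay wholly above the unstimulated one. With IL-33 the change was 1.22 ± 0.49 (adjusted p = 0.122, and 1.03e-05 with the block). With IgE Cycs rose by 1.60 ± 0.49, or 3.04-fold, with an adjusted p of 0.0440 by limma and 6.87e-07 with the replicate block. The call without the block was lost whichever of the 6 arrays was left out, with an adjusted p of 0.0613 to 0.147.

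The array numbered 3 was the lowest for Cycs in every group, by 0.33 to 1.62 log2 units below the mean of the other two. A pair of dimmer Cycs probes changed the same way by smaller amounts: with IgE in WT cells by 0.73 and 0.33. Averaged over the 3 probes the change was 0.89, with an adjusted p of 0.0827.

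**Figure D2:**
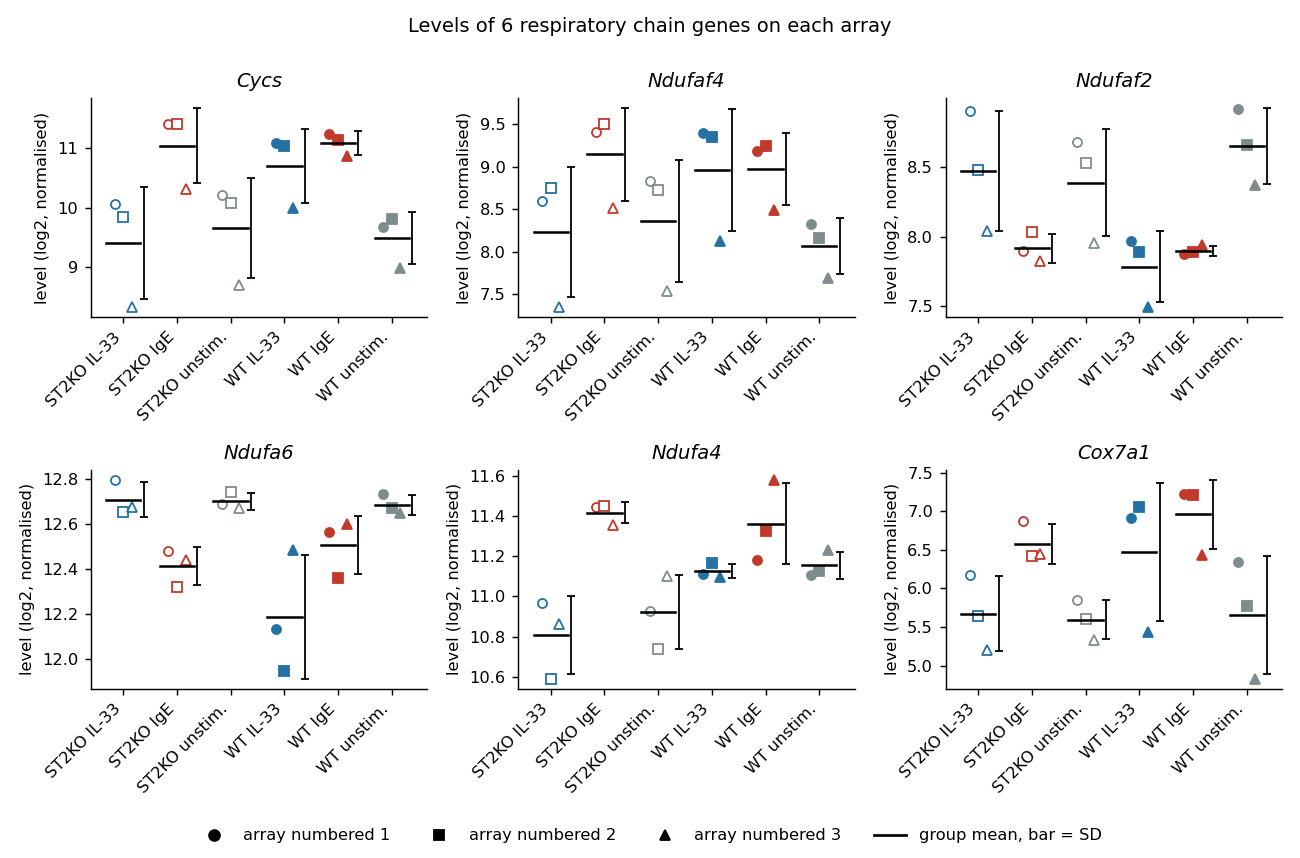
Level (log2, y axis) of 6 genes on every array in the 6 groups. ST2KO groups have open and WT groups filled symbols, circles, squares and triangles are the arrays numbered 1, 2 and 3, black lines are group means and bars their SD (n = 3). Cycs and Ndufaf4 lie higher with IgE in both genotypes and with IL-33 in WT cells, Ndufaf2 lies lower there, and for Cycs and Ndufaf4 the triangle is the lowest symbol of each group.

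Complex I is built from modules by dedicated assembly factors, and 2 of the 7 measured here changed by larger amounts than most subunits, in opposite directions. The promoter of Ndufaf4 (GRCm38.p6, chr4:24897833-24898082, plus strand) carries the NRF1 letters GCATGCGC on both strands, overlapping, from 113 bases before the start, and SP1 letters GGGCGG beginning 89 and 84 bases before it, overlapping by a base. The promoter of Ndufaf2 (chr13:108158626-108158875, minus strand) carries GGGCGG beginning 14 bases before the start and no NRF1 letters. Matches are in capitals, and the NRF1 letters were settled after the sequences had been seen.
Ndufaf4 promoter: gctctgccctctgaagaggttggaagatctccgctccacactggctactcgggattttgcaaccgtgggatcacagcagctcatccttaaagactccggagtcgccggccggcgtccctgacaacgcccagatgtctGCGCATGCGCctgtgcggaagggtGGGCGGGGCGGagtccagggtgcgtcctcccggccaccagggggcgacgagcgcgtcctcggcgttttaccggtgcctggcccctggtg
Ndufaf2 promoter: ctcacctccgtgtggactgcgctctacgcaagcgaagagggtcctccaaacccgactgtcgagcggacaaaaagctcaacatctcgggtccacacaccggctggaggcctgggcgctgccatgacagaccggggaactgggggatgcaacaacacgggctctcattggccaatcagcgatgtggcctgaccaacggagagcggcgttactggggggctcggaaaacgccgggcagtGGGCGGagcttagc

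Ndufaf4, an early assembly factor of complex I, was at 8.60, 8.75 and 7.35 in ST2KO cells with IL-33 and at 9.42, 9.51 and 8.52 with IgE, against 8.83, 8.73 and 7.54 unstimulated. Both stimulated groups overlapped the unstimulated one. The changes were -0.13 ± 0.45 with IL-33 and 0.78 ± 0.45 with IgE (adjusted p = 0.287 with IgE, and 0.00065 with the block). In WT cells it was at 9.40, 9.35 and 8.13 with IL-33 and at 9.19, 9.25 and 8.49 with IgE, against 8.33, 8.17 and 7.69 unstimulated. The IgE arrays lay above all unstimulated ones, and the third IL-33 array overlapped them. The changes were 0.90 ± 0.45 with IL-33 (adjusted p = 0.229, and 0.000214 with the block) and 0.91 ± 0.45 with IgE (0.218, and 0.000184 with the block). The second probe of Ndufaf4 gave 0.88, 0.94 and 0.78 for ST2KO IgE, WT IL-33 and WT IgE, close to the first.

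Ndufaf2, a late assembly factor of complex I, was at 8.90, 8.48 and 8.04 in ST2KO cells with IL-33 and at 7.90, 8.03 and 7.82 with IgE, against 8.68, 8.53 and 7.95 unstimulated. Both groups overlapped the unstimulated one, with the IgE arrays toward the low end. The changes were 0.08 ± 0.23 with IL-33 and -0.47 ± 0.23 with IgE (adjusted p = 0.204 with IgE, and 0.0315 with the block). The WT cells were at 7.97, 7.89 and 7.49 with IL-33 and at 7.87, 7.89 and 7.94 with IgE, against 8.92, 8.66 and 8.37 unstimulated. Neither stimulated group overlapped the unstimulated one. Ndufaf2 fell with both stimuli, with a change of -0.87 ± 0.23 with IL-33 (adjusted p = 0.0229, and 0.000594 with the block) and of -0.75 ± 0.23 with IgE (0.0456, and 0.00177 with the block). With IL-33 it passed without WT unstimulated replicate 3 (0.0214) and without WT IL-33 replicate 1 (0.0458), and the other 4 fits that leave out an array gave up to 0.103. With IgE it passed without WT unstimulated replicate 3 (0.0412), and the other 5 gave up to 0.169.

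Ndufaf7, a methyltransferase that acts on a complex I subunit, was at 7.40, 7.54 and 6.93 in ST2KO cells with IL-33, against 7.37, 7.11 and 6.66 unstimulated, so that the ranges overlapped. WT cells were at 6.99, 6.52 and 6.95 with IL-33, against 7.41, 7.43 and 7.41 unstimulated. Those groups did not overlap, and the change was -0.60 (adjusted p = 0.107, and 0.0205 with the block). Ndufaf7 was named after its values were seen, and so were Ndufa11, Ndufb6, Ndufs7, Ndufab1, Ndufc1, Ndufs8, Ndufv3, Ndufs5-ps, Uqcr10, Uqcrq, Atp5md, Atp5g3, Atp5mpl, Atp5pb, Atp5c1 and Atp5j below, whose calls rest on the block.

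Among the Nduf genes that are not assembly factors, Ndufa6 and Ndufa4 passed without the block. The Ndufa6 promoter (GRCm38.p6, chr15:82354292-82354541, minus strand) carries the NRF1 core GCATGCGC beginning 83 bases before the start, and the Ndufa4 promoter (chr6:11907451-11907700, minus strand) carries none of the 6 motifs searched. As for Cycs, the NRF1 letters were settled after the sequences had been seen. Both promoters are set out below to be read beside those of Cycs and Ndufaf4.
Ndufa6 promoter: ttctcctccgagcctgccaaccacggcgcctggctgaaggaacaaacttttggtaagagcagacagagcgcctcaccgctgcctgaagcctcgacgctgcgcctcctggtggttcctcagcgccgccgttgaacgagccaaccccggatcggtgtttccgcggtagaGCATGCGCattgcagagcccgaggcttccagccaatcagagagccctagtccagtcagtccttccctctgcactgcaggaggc
Ndufa4 promoter: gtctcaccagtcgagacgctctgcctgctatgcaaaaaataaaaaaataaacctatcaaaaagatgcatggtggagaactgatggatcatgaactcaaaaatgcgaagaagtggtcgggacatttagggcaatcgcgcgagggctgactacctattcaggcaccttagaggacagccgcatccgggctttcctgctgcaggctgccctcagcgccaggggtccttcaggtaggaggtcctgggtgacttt

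Ndufa6, an accessory subunit of the LYR family that binds acyl carrier protein, was at 12.79, 12.65 and 12.67 in ST2KO cells with IL-33, against 12.69, 12.74 and 12.67 unstimulated, a change of 0.01. With IgE the ST2KO cells were at 12.48, 12.32 and 12.44, below the unstimulated ones, a change of -0.29 (adjusted p = 0.132, and 0.0364 with the block). In WT cells it was at 12.13, 11.94 and 12.48 with IL-33 and at 12.56, 12.36 and 12.60 with IgE, against 12.73, 12.67 and 12.65 unstimulated. The IL-33 arrays were all below the unstimulated ones, with array 3 the nearest to them. Ndufa6 fell with IL-33, a change of -0.50 ± 0.12 (adjusted p = 0.0128), and with IgE the change was -0.18 ± 0.12. The call with IL-33 did not pass without WT unstimulated replicate 1 (0.0534), WT IL-33 replicate 1 (0.0612) or WT IL-33 replicate 2 (0.0768), and it was -0.64 (adjusted p = 0.000831) without WT IL-33 replicate 3.

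Ndufa4, first assigned to complex I and later found in complex IV, was at 11.45, 11.45 and 11.36 in ST2KO cells with IgE, against 10.93, 10.74 and 11.10 unstimulated. The groups did not overlap, and the third IgE value was placed by rank. The rise was 0.50 ± 0.13, or 1.41-fold (adjusted p = 0.0188). The adjusted p was 0.0896 without ST2KO unstimulated replicate 2, 0.0679 without ST2KO IgE replicate 1 and 0.0699 without ST2KO IgE replicate 2. In WT cells with IgE it was at 11.18, 11.33 and 11.58, against 11.11, 11.12 and 11.23 unstimulated, a change of 0.21 ± 0.13 with overlapping groups. The difference between the IgE responses of the genotypes did not pass for any of the 81 genes, Ndufa4 included.

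Other complex I subunits passed with the block only. Ndufa11, an accessory subunit of the membrane arm, was at 9.91, 10.09 and 9.51 in ST2KO cells with IgE, against 9.78, 9.76 and 8.82 unstimulated, a change of 0.38 with overlap (block adjusted p = 0.0338). In WT cells it was at 10.50, 10.16 and 9.97 with IgE, against 9.61, 9.72 and 9.21 unstimulated. Those groups did not overlap, and the change was 0.70 (block adjusted p = 0.000645). Ndufb6, another membrane arm subunit, changed by 0.44 in ST2KO and 0.35 in WT cells with IgE (block adjusted p = 0.00305 and 0.0130). In the other direction, the core subunit Ndufs7, which carries the last iron-sulphur cluster before ubiquinone, was at 10.68, 10.84 and 10.56 in ST2KO cells with IgE, against 11.24, 11.23 and 10.86 unstimulated. The groups did not overlap, and its change was -0.41 (block adjusted p = 0.00705), beside -0.40 with IgE in WT cells (0.00935).

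The remaining complex I calls were each in a single comparison and again needed the block. Ndufc1 (0.45) and the core subunit Ndufs8 (0.33) were higher with IgE in ST2KO cells, Ndufab1, the mitochondrial acyl carrier protein, was higher with IL-33 in WT cells (0.37), and Ndufs5-ps was higher with IgE in WT cells (0.47). Ndufv1, the core subunit that binds NADH, passed in no comparison by either fit. Its group means spanned 0.20 log2 units, and its 95% interval with IgE in WT cells ran from -0.36 to 0.14.

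No subunit of complex II passed in any comparison by either fit. Sdhb, its iron-sulphur subunit, was at 9.61, 9.73 and 9.75 in ST2KO cells with IgE, against 9.51, 9.31 and 9.35 unstimulated. These groups did not overlap, and the change was 0.31 ± 0.15 (adjusted p = 0.214). WT cells were at 9.98, 9.89 and 9.99 with IgE, against 9.71, 9.63 and 9.47 unstimulated, again without overlap, a change of 0.35 ± 0.15 (0.157). Sdhc and Sdhd, the membrane anchors, changed by 0.15 ± 0.15 and -0.21 ± 0.24 with IgE in WT cells.

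In complex III the calls were of small subunits, with the block only. Uqcrc1, a core subunit, was at 10.70, 10.60 and 10.26 in WT cells with IgE, against 10.38, 10.58 and 10.10 unstimulated, with overlapping groups and a change of 0.17 ± 0.15. Cyc1, the cytochrome c1 subunit, changed by 0.24 ± 0.33 with IL-33 and 0.16 ± 0.33 with IgE in WT cells, with 95% intervals from -0.46 to 0.94 and from -0.53 to 0.86. Uqcr10, a small subunit, was at 12.88, 13.04 and 12.71 in WT cells with IgE, against 12.43, 12.64 and 12.08 unstimulated. The groups did not overlap, and the change was 0.50 ± 0.22 (adjusted p = 0.17, and 0.0038 with the block). In ST2KO cells its change with IgE was 0.33 (block adjusted p = 0.0385). Uqcrq, another small subunit, was at 6.70, 6.64 and 6.44 in WT cells with IL-33, against 5.91, 6.14 and 5.82 unstimulated, a change of 0.64 without overlap (block adjusted p = 0.00667). With IgE the WT cells were at 6.63, 6.47 and 6.30, also above all unstimulated arrays, a change of 0.51 (adjusted p = 0.302, and 0.0249 with the block).

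Complex IV holds several subunits with tissue-restricted paralogues. Cox7a1, the isoform typical of heart and skeletal muscle, was at 6.88, 6.42 and 6.44 in ST2KO cells with IgE, against 5.84, 5.61 and 5.34 unstimulated. The groups did not overlap, and the change was 0.98 ± 0.43 (adjusted p = 0.159, and 0.00111 with the block). In WT cells it was at 7.23, 7.21 and 6.44 with IgE, against 6.35, 5.77 and 4.83 unstimulated, also without overlap, a change of 1.31 ± 0.43 (0.0638, and 0.000105 with the block). With IL-33 the change was 0.08 in ST2KO cells and 0.82 in WT cells (block adjusted p = 0.00453 in WT cells). Its broadly expressed paralogue Cox7a2 had group means within 0.20 log2 units, and changed by -0.03 ± 0.27 with IgE in WT cells.

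Cox7a2l, a relative that takes part in joining complexes III and IV into supercomplexes, was at 11.89, 12.15 and 12.32 in ST2KO cells with IL-33, against 11.76, 11.69 and 12.05 unstimulated, a change of 0.28 ± 0.25. WT cells were at 11.10, 10.81 and 11.84 with IL-33, against 11.65, 11.58 and 12.06 unstimulated. The groups overlapped, but each IL-33 array was below the unstimulated array of its number, with differences of -0.56, -0.77 and -0.22. The change was -0.51 ± 0.25 (adjusted p = 0.203, and 0.00139 with the block), and with IgE it was -0.30 (block adjusted p = 0.0391).

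Cox6b2, the testis isoform, was at 6.84, 5.96 and 7.91 in WT cells with IL-33 and at 6.50, 6.18 and 8.46 with IgE, against 7.34, 6.83 and 8.85 unstimulated. In all 6 groups the array numbered 3 was the highest, by 1.51 to 2.52 above the mean of the others. The change was -0.77 ± 0.93 with IL-33 and -0.63 ± 0.93 with IgE (adjusted p = 0.668 and 0.733, and 0.00194 and 0.00774 with the block). In ST2KO cells with IgE it was -0.54 (block adjusted p = 0.0189). A second Cox6b2 probe, close to background, changed by -0.03 with IL-33 and -0.01 with IgE in WT cells. Of the broadly expressed forms, Cox6a1 changed by 0.30 with IgE in ST2KO cells (block adjusted p = 0.0144) and by 0.19 ± 0.16 in WT cells. Cox6b1 changed by 0.16 ± 0.23 with IgE in WT cells.

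Cox4i1, the largest nuclear subunit of complex IV in most tissues, passed nowhere by either fit, and its group means lay within 0.20 log2 units. Cox5a, its partner in early assembly, was at 12.76, 12.76 and 12.19 in ST2KO cells with IgE, against 12.46, 12.12 and 11.80 unstimulated. Those groups overlapped, and the change was 0.44 (adjusted p = 0.179, and 0.00168 with the block). In WT cells Cox5a was at 12.28, 12.24 and 11.92 with IL-33, against 12.59, 12.52 and 12.39 with IgE. The IL-33 arrays were all below the IgE arrays, a difference of -0.35 (block adjusted p = 0.0154).

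Of the 16 genes of the ATP synthase, 0 passed without the block in any of the 8 comparisons. Atp5b, the catalytic beta subunit, was at 13.90, 13.77 and 13.36 in WT cells with IL-33, against 13.54, 13.33 and 12.98 unstimulated. Each IL-33 array was above the unstimulated array of its number although the ranges overlapped. The change was 0.39 ± 0.22 (adjusted p = 0.293, and 0.00207 with the block). Atp5a1, the alpha subunit, was at 9.75, 9.77 and 9.54 in WT cells with IgE, against 9.63, 9.87 and 9.48 unstimulated, a change of 0.03 ± 0.18. In ST2KO cells with IgE, Atp5md, a small membrane subunit, was at 6.17, 6.89 and 6.38, against 5.92, 5.74 and 5.19 unstimulated. The groups did not overlap, and the change was 0.87 (block adjusted p = 0.00418). The c-ring gene Atp5g3 changed by 0.24 in ST2KO and 0.25 in WT cells with IgE (block adjusted p = 0.0439 and 0.0387). Atp5j, a subunit of the peripheral stalk, changed by 0.35 with IgE in WT cells (0.0272). Atp5mpl and Atp5pb were higher and Atp5c1, the gamma subunit, was lower in ST2KO cells with IgE, by 0.39, 0.36 and -0.31, with the block only.

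The IgE response did not differ between the genotypes for any of the 81 genes at an adjusted p under 0.05, by either fit. The sign of the IgE change was the same in ST2KO and WT cells for 64 of the 81 genes (79%), beside 81.7% of all genes, and each genotype had its own unstimulated cells. Of the genes that passed with the block, 10 did so in both genotypes, in the same direction, which is 50% of the 20 in ST2KO cells and 71.4% of the 14 in WT cells. Over all genes the shared calls were 76.5% of those in ST2KO cells and 79.4% of those in WT cells. Between unstimulated ST2KO and unstimulated WT cells the differences ran from -0.45 for Cox6b2 to 0.30 for Ndufaf4. The 95% interval of that difference lay within 1 log2 unit of 0 for 78 of the 81, beside 82% of all genes. With IL-33 in ST2KO cells the largest change of any of the 81 genes, in either direction, was 0.41 log2 units.

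The difference of the IL-33 responses was tested as an interaction, ST2KO minus WT. It passed for 7 genes with the block and for none without it. For Cycs it was -1.47 ± 0.69 (adjusted p = 0.341), and ± 0.20 with the block (0.000192). Number by number, IL-33 minus unstimulated was -0.16, -0.23 and -0.37 in ST2KO cells, against 1.41, 1.25 and 1.01 in WT cells. The other genes were Ndufaf4 (-1.03, block adjusted p = 0.00321), Ndufaf2 (0.95, 0.00904), Ndufaf7 (0.84, 0.0378), Cox7a2l (0.80, 0.00188), Ndufa6 (0.50, 0.023) and Cox5a (0.41, 0.045). Without the block their adjusted p was 0.144 to 0.572.

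**Figure D3:**
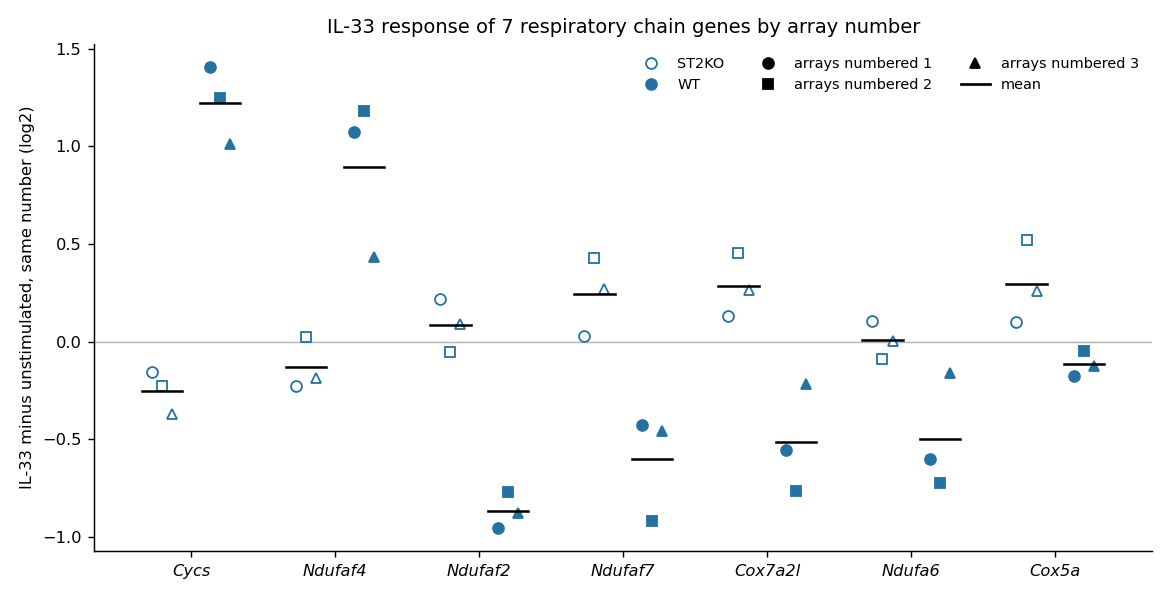
IL-33 minus unstimulated (log2, y axis) for the 7 genes whose interaction passed with the replicate block, for each array number, with ST2KO (open symbols) left of WT (filled symbols). For Cycs the 3 ST2KO values lie between -0.37 and -0.16, while the 3 WT values lie between 1.01 and 1.41.

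Between the stimuli, in WT cells, 5 genes passed with the block, all lower with IL-33 than with IgE: Cox5a (-0.35), Ndufb6 (-0.38), Ndufv3 (-0.33), Ndufa6 (-0.32) and Ndufa11 (-0.41). A second, dimmer Ndufb6 probe changed by 0.02 in this comparison. The summed intensity of the macrophage and dendritic cell markers was 770 to 5801 with IL-33, against 412 to 3218 with IgE, so the ranges overlapped. The highest sums, 5801 and 3218, were on the arrays numbered 3. Arrays 1 and 2 held 770 to 976 with IL-33, against 412 to 423 with IgE. Of the 7 measured, Adgre1 alone passed without the block, higher with IL-33 by 1.14 (adjusted p = 0.0188), and Cd74 averaged 8.99 with IL-33, against 6.56 with IgE (adjusted p = 0.715, and 0.000133 with the block). Lyz2 (8.45 against 7.80) and H2-Aa (6.50 against 6.21) also averaged higher with IL-33. Cd14 (4.56 against 4.75) and Csf1r (4.84 against 4.87) averaged lower, and C1qa was level at 4.59. The part of these markers in the 5 differences was not tested. The median difference over the 81 genes was -0.12, beside -0.01 over all genes. With median scaling in place of quantile normalization it was -0.23, and that scaling shifted the median of all genes by -0.10.

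The arrays numbered 3 were lower for most of these genes. The median gap of array 3 to the mean of arrays 1 and 2 was -0.33 log2 units for the 81 genes, beside -0.04 for all genes. It was lower in all 6 groups for 45 of the 81 genes (55.6%), beside 18.9% of all genes, and higher in all 6 for 3 (3.7%), beside 16.02%. Also lower in all 6 groups were 53.3% of 15 citric acid cycle and pyruvate dehydrogenase genes and 50% of 72 mitochondrial ribosome genes. The share was 45.8% of 24 genes of import and protein quality control, 34.3% of 35 other assembly factors and 23.5% of 17 biogenesis regulators. It was 0% of 13 glycolysis genes, but their median gap was -0.27, like that of the mitochondrial ribosome (-0.27) and citric acid cycle list (-0.28). With median scaling 61.5% of the glycolysis genes were lower in all 6 groups, beside 80.2% of the 81 genes and 36.3% of all genes. By complex the median gap was -0.43 for the 7 assembly factors of complex I, -0.39 for complex V, where 12 of 16 genes were lower in all groups, -0.36 for complex III, -0.35 for complex IV, -0.32 for the accessory subunits of complex I, -0.21 for its core subunits and -0.13 for complex II. The genes farthest down were Ndufaf4 and Cycs (both -1.09), Cox7a1 (-0.75) and Atp5k (-0.67). Farthest up were Cox6b2 (2.21), Cox7a2l (0.47), Sdhd (0.45) and Ndufc2 (0.26). With median scaling the median gap was -0.63 for the 81 genes and -0.21 for all genes.

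On the same arrays the macrophage and dendritic cell sums were also higher, at 1254, 860 and 1239 in ST2KO cells with IL-33, with IgE and unstimulated, against at most 581 on the other ST2KO arrays. In WT cells the sums were 5801, 3218 and 4109, against at most 976. Of the 7 markers, H2-Aa (4.61) and Cd74 (4.12) were higher on array 3 in all 6 groups. Csf1r (-0.18) was lower in all 6, and the median gap over the list was 0.23. H2-Aa was detected on only 6 arrays and Cd74 on 11. The filter asked for detection on 3 or more arrays, so the arrays numbered 3 could alone have kept H2-Aa. The direction of the H2-Aa gap is therefore not a separate test. The sum of 3 basophil markers was 6508 to 8384 on the arrays numbered 3 and 5200 to 6693 on the others, with Mcpt8 and Cd200r3 higher and Prss34 lower in all 6 groups. Hba-a1, the 1 erythroid marker measured, was lower in all 6 (-1.73). The markers were named after their values were seen, and their part in the gaps of the respiratory chain genes was not tested. Without the 6 arrays numbered 3, the changes of Cycs were 1.27 with IgE in ST2KO cells, 1.33 with IL-33 in WT cells and 1.46 with IgE in WT cells, close to those with them.

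**Figure D4:**
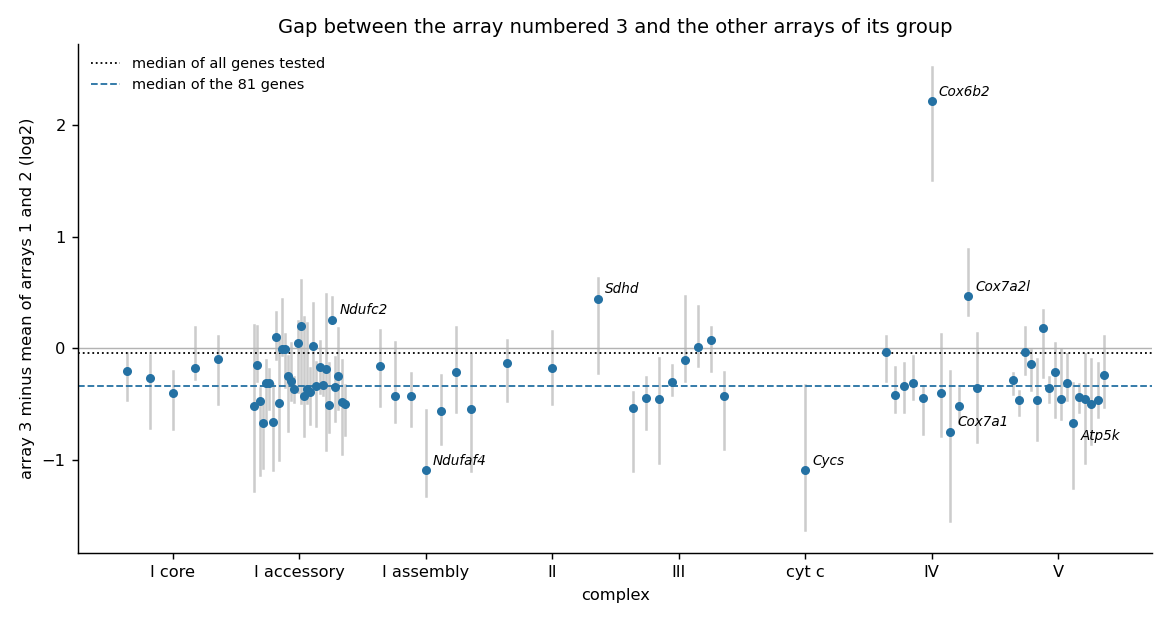
Median over the 6 groups of the array numbered 3 minus the mean of arrays 1 and 2 (log2), for each of the 81 genes by complex, with grey lines for the range over groups. The dashed line is the median of the 81 genes (-0.33) and the dotted line that of all genes (-0.04). Most genes lie below the dotted line, with Ndufaf4 and Cycs lowest and Cox6b2 alone far above.

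A RefSeq promoter window was found for 70 of the 81 genes. In the 250 bases before the start, on either strand, the NRF1 letters GCATGCGC were found in 10 of the 70 (14.29%), beside 2.56% of the windows of 27025 genes. The ETS letters CCGGAAG, read by GABPA, were found in 14 (20.0%), beside 7.83%, and the CRE letters TGACGTCA in 5 (7.14%), beside 1.77%. The SP1 letters GGGCGG were found in 30 (42.86%), beside 35.36%, the ESRRA letters TCAAGGTCA in 1 (1.43%), beside 0.42%, and the YY1 letters AAGATGGCG in 1 (1.43%), beside 0.71%. The NRF1, YY1 and CRE letters were settled after the sequences had been seen. The 27025 genes were all genes with a window and were not limited to those detected on the arrays, whereas the 70 all were. The shares among detected genes, or among genes of matched level, were not tested. The contrasts therefore cannot be assigned to the respiratory chain.

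Genes around the chain were described from lists, in the order IgE in ST2KO, IL-33 in WT and IgE in WT cells. Of all genes 5.47%, 5.08% and 5.32% rose and 7.1%, 6.73% and 6.49% fell in that order. Of 35 measured assembly factors without an Nduf symbol, 2 rose and 2 fell, 1 rose and 1 fell, and 2 rose and 1 fell. Sdhaf4, an assembly factor of complex II, fell with each (-0.95, -0.87 and -0.79), and Sdhaf1, another, rose with IL-33 in WT cells (1.32 ± 0.24, adjusted p = 0.00244). Of 11 genes of coenzyme Q synthesis and function, Coq10b rose with each (1.36, 1.12 and 1.45), and no other passed. Of 17 regulators of mitochondrial biogenesis, 3 rose and 1 fell, 2 rose and 1 fell, and 1 rose and 1 fell. Gabpb1, a partner of GABPA, rose with each (0.97, 1.30 and 1.11), and Polg, the mitochondrial DNA polymerase, fell with each (-0.82, -1.43 and -0.997). Of 6 measured subunits encoded by mitochondrial DNA, a list added after the files had been seen, ND5 of complex I alone passed, with IL-33 in WT cells (0.82, adjusted p = 0.049).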

How the data were processed

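Biotin-labelled total RNA was hybridised to 18 Illumina arrays, per the labels. The deposited data gave an intensity and a detection p-value for each of 45281 probes, per the file headers. The lowest deposited intensity was 71.2 to 79.5 on the complete arrays, so background had not been removed. The authors' deposited log2 table held the same sorted values on every array to within 0.00077, which is quantile normalization. How the authors treated background is not given in the sources used here. The array ST2KO IgE replicate 3 lacked 35269 probe values.

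The 17 complete arrays were background corrected and quantile normalized by neqc (limma 3.58.1, R 4.3.3, offset 16), and the incomplete array was placed on their shared distribution by the rank of the authors' log2 values. Pearson's r with the authors' own log2 values was at least 0.992. Probes with a detection p under 0.05 on 3 or more arrays were kept (19560, of which 16666 carried 1 symbol, 7 several and 2887 none). The probe with the highest mean level stood for a gene. A limma model with 1 mean per group and an intensity trend was fitted to all 10548 genes and 18 arrays, with Benjamini-Hochberg adjustment within each of 8 comparisons. The number of arrays limits the precision.

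Same-numbered arrays of a genotype deviated together (residual correlation 0.510 to 0.918, 18 of 18 best with their own number), and between genotypes at 0.397 to 0.727 (19 of 27 best). The match was clear mainly for number 3. Between unstimulated and IgE-treated WT cells, number 3 gave 0.705, against -0.585 for the best other number. Number 1 gave 0.519, against 0.477. Array 3 stood apart in each group, so residuals of arrays 1 and 2 resemble each other whatever their pairing. The sample descriptions attach the number to the genotype. The block was therefore the number within genotype, and the number shared by both genotypes for unstimulated ST2KO against WT cells.

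The members, gene lists and tests were chosen with earlier results of these data known. Named were the members past the threshold, a fixed set of core subunits, the paralogues of complex IV, the 8 members farthest up or down on the arrays numbered 3, up to 4 passing genes of other lists, and those said to be named after their values were seen. Promoters came from RefSeq (GRCm38.p6). The fits were tested on simulated data, and figures were drawn with matplotlib 3.10.9 in Python 3.11.15. Alternatives were no background correction, median scaling, the authors' log2 values, no or a stricter detection filter, the mean of a gene's probes, only the groups compared, no trend, the replicate block, no arrays numbered 3, and each array left out. Basophil samples were not used here.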

Additional observations from a re-analysis of the deposited data

Results flagged for a closer look

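The response to IL-33 differed between the genotypes for 7 respiratory chain genes by a test of the difference itself, the interaction ST2KO minus WT with the replicate block. The values were -1.47 for Cycs, -1.03 for Ndufaf4, 0.41 for Cox5a, 0.50 for Ndufa6, 0.80 for Cox7a2l, 0.84 for Ndufaf7 and 0.95 for Ndufaf2. They are 7 of 81, beside 15.5% of all genes in the same fit. None of the 7 passed without the block. Of the genes around the chain, 4 passed without the block by limma: Coq10b with -1.16 (adjusted p = 0.0368), Sdhaf1 with -1.37 (0.0462), Mrpl14 with -0.83 (0.0367) and Polg with 1.59 (0.0264). Their lists held 11, 35, 72 and 17 measured genes, and the other mitochondrial and metabolic lists 15, 24, 9, 10, 13 and 6. Of all genes 2.71% passed in that fit.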

How the results depend on the processing

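With 3 arrays per group, 4 genes passed without the block and 28 with it. For ST2KO IgE against unstimulated (1 gene), the count was 0 with median scaling, 2 with the mean of a gene's probes, 0 with only the groups compared, 20 with the replicate block and 20 without the arrays numbered 3. For WT IL-33 against unstimulated (2 genes) it was 0 with only the groups compared, 11 with the replicate block and 17 without the arrays numbered 3. For WT IgE against unstimulated (2 genes) it was 0 with median scaling, 0 with no detection filter, 1 with the mean of a gene's probes, 14 with the replicate block and 16 without the arrays numbered 3. From 0 genes, WT IL-33 against WT IgE gave 5 with the block and 7 without the arrays numbered 3, unstimulated ST2KO against WT cells gave 3 without them, and the difference of the IL-33 responses gave 7 with the block and 7 without them. The block changed no call of the comparisons not named here. The cause of the moves was not tested.

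Leaving out each array in turn gave 0 to 3 genes for ST2KO IgE (3 without ST2KO IgE replicate 3), 0 to 3 for WT IL-33 (3 without WT IL-33 replicate 3), 0 to 2 for WT IgE, 0 to 1 for WT IL-33 against WT IgE, 0 to 2 for the difference of the IL-33 responses and 0 to 0 for the other comparisons. Median scaling shifted the median of all genes by -0.16 for WT IL-33, -0.12 for unstimulated ST2KO against WT cells and 0.20 for the difference of the IL-33 responses. With it 28.3%, 18%, 27.6%, 40.5% and 80% of the calls over all genes were higher for ST2KO IgE, WT IL-33, WT IgE, WT IL-33 against WT IgE and the difference of the IL-33 responses, where the main values were 43.5%, 43%, 45%, 48.7% and 46.2%. Over all genes, with only the groups compared, 233 rose and 250 fell for ST2KO IgE (main 577 and 749), 360 and 394 for WT IL-33 (536 and 710), 156 and 138 for WT IL-33 against WT IgE (227 and 239), and 54 and 87 for the difference of the IL-33 responses (132 and 154). With no detection filter that difference gave 52 and 93. Without the arrays numbered 3 the counts were 1693 and 2186 for ST2KO IgE, 1733 and 2334 for WT IL-33, 1734 and 2176 for WT IgE (561 and 685), 1010 and 1189 for WT IL-33 against WT IgE, 1467 and 1094 for the difference of the IL-33 responses, 288 and 246 for unstimulated ST2KO against WT cells (0 and 1), and 9 and 6 for the difference of the IgE responses (0 and 0). Leaving out 1 array gave as few as 311 and 347 for ST2KO IgE, 298 and 326 for WT IL-33, 276 and 318 for WT IgE, 124 and 102 for WT IL-33 against WT IgE and 35 and 64 for the difference of the IL-33 responses, which gave 311 and 265 without WT IL-33 replicate 3.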

Other observations

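Other mitochondrial and metabolic lists held a few strong single genes in the order IgE in ST2KO, IL-33 in WT and IgE in WT cells, where 5.47%, 5.08% and 5.32% of all genes rose and 7.1%, 6.73% and 6.49% fell. Of 24 genes of mitochondrial import and protein quality control, 2, 1 and 2 rose and none fell. Lonp1, a matrix protease, rose with each (1.01, 1.13 and 1.05), and Hspa9, a matrix chaperone, rose with IgE in ST2KO (0.72) and WT cells (0.61). Of 72 genes of the mitochondrial ribosome, 2 rose and 2 fell, 2 rose and none fell, and 2 rose and 1 fell. Mrps6 rose with IgE in ST2KO (2.09) and WT cells (2.02), and Mrpl14 rose with IL-33 in WT cells (0.79).

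Of 15 genes of the citric acid cycle and pyruvate dehydrogenase, 1, 0 and 1 rose and 1, 2 and 1 fell. Suclg2, a subunit of succinate-CoA ligase, fell with each (-1.27, -1.14 and -0.93). Mdh2, the mitochondrial malate dehydrogenase, rose with IgE in ST2KO (0.83) and WT cells (0.80), and Pdha1, a subunit of pyruvate dehydrogenase, fell with IL-33 in WT cells (-0.55). Of 10 genes of antioxidant defence and uncoupling, none rose and 3, 2 and 2 fell. Gpx4, which removes lipid peroxides, fell with each (-0.63, -0.48 and -0.53), as did Atpif1, the inhibitor of the ATP synthase (-0.48, -0.56 and -0.50). Of 9 carriers and porins, 0, 2 and 1 rose and 1 fell in each. Slc25a33, a pyrimidine nucleotide carrier, rose with IL-33 in WT cells (1.37), Vdac2, an outer membrane porin, rose with IL-33 (0.84) and IgE (0.70) in WT cells, and Slc25a1, the citrate carrier, fell with each (-0.47, -0.50 and -0.49). Of 13 glycolysis genes, Pgam1 rose (1.03) and Pfkm fell (-1.47) with IgE in ST2KO cells, and Pfkp fell with IL-33 in WT cells (-0.87). All passed by limma at an adjusted p under 0.05 in the fit without the block.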
